A study of Homo sapiens with 3 samples.

Results

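Integrin and laminin genes encode the receptors and the ligands by which cells hold on to a basement membrane. Their promoters were read in a chromatin immunoprecipitation sequencing (ChIP-seq) study of SW1990, an established line of human pancreatic ductal adenocarcinoma, in a cell population labelled SP. The members were all genes whose symbol in the promoter table names an integrin alpha chain, an integrin beta chain or a laminin chain. This rule used symbols alone and no measured value. It gave 38 genes of the 57997 symbols in the table: 18 integrin alpha chains, 8 integrin beta chains and 12 laminin chains. They hold 39 promoter windows of 60123, since ITGB3 is listed under 2 Ensembl identifiers.

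The series has 3 libraries from this line, whose labels name no genetic change and no drug. The PAF1 library, titled PD2, was made with an antibody against a subunit of the PAF1 transcription elongation complex. The PHF5A library was made with an antibody against a protein of the SF3b splicing particle. Input chromatin, the third library, and the IgG control that the protocol mentions were not analysed here. All cells had been crosslinked with EGS together with formaldehyde. Each value is the mean signal over a window from 2000 bp upstream to 500 bp downstream of the listed start in hg38, in the deposited units, and the sources used here do not state their scale. Each antibody has 1 library, so no difference below has a replicate check, and no test between groups was made. The number behind ± is a counting standard error for 1 library, scaled by a dispersion taken from the split of counts between the PAF1 and PHF5A libraries.

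An integrin is a pair of 1 alpha and 1 beta chain that spans the cell membrane. Outside the cell it binds collagen, laminin, fibronectin or receptors on other cells, and inside it is coupled to actin or, in hemidesmosomes, to keratin filaments. A laminin is a trimer of 1 alpha, 1 beta and 1 gamma chain and forms the sheet on which epithelia rest. In ductal epithelium and in carcinomas derived from it, the pair of the alpha 6 and beta 4 chains is the best known laminin receptor. The leukocyte integrins, among them those with the beta 2 and beta 7 chains, serve the adhesion and homing of white blood cells. Promoter signal of PAF1 or PHF5A is not a measure of expression.

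The deposited signal behaved as a mean of whole numbers over bins of 150 bp, and the bin sums over all windows were 4810548 for PAF1 and 4891421 for PHF5A. The median symbol had a signal of 4.11 with PAF1 and 4.3 with PHF5A, and the median protein-coding symbol 3.64 and 3.91. Among the members the signal ran from 0.76 to 15.2 with PAF1 and from 0.11 to 12.3 with PHF5A, with medians of 4.03 and 4.34. A value at or below 0.763 in a window of 17 bins, or 0.721 in a window of 18 bins, is no more exact than a 0 with PAF1, and for PHF5A these floors are 0.768 and 0.725. Of the ductal epithelium markers, KRT8 was highest by mean log2 signal at 6.94 ± 1.29 and 8.27 ± 1.41. EPCAM had 6.7 ± 1.31 and 6.5 ± 1.29, and KRT19, the lowest, 1.88 ± 0.692 and 3.07 ± 0.888. Of the leukocyte markers, SPI1, which encodes a myeloid transcription factor, was highest at 13.9 ± 1.83 and 18.2 ± 2.1. LYZ was lowest by mean log2 signal, at 3.16 ± 0.872 and 1.95 ± 0.688, below the median symbol in both libraries. Above the median promoter in both libraries were 3 of 6 epithelial and 2 of 6 leukocyte markers, beside 40.8% of all symbols. These promoter values thus do not check the labelled cell type.

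Promoters of the highest members, of ITGA6 and of low members are printed here, since the results turn on them, with each CG dinucleotide in capitals. Each sequence is the RefSeq promoter of GRCh38.p14 from 250 bases before to 50 after the start nearest to the deposited one, read 5′ to 3′ on the strand of the gene. ITGA10, ITGB7 and ITGA8 had the highest mean log2 signals of all members, ITGA6 stood in the middle, and ITGAE and LAMA5 were the lowest after ITGB2, whose promoter is not shown.
ITGA10 (chr1:145910001-145910300, minus strand): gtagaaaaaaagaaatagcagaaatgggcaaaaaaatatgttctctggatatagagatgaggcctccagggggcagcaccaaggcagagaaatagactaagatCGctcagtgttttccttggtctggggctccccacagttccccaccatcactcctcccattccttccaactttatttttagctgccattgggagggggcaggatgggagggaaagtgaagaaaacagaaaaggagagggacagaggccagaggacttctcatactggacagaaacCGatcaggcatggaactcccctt
ITGB7 (chr12:53207202-53207501, minus strand): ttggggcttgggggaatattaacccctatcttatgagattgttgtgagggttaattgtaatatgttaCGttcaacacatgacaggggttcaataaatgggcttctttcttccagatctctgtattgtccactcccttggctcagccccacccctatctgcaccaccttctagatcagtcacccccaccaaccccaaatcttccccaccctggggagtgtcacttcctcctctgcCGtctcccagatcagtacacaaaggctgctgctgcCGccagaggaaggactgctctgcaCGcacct
ITGA8 (chr10:15719873-15720172, minus strand): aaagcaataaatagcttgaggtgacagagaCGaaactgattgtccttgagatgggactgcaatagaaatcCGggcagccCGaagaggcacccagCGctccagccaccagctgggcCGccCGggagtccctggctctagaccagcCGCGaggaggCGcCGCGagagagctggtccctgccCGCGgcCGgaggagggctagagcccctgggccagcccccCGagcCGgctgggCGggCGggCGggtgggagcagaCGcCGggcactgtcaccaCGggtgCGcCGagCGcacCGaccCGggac
ITGA6 (chr2:172427086-172427385, plus strand): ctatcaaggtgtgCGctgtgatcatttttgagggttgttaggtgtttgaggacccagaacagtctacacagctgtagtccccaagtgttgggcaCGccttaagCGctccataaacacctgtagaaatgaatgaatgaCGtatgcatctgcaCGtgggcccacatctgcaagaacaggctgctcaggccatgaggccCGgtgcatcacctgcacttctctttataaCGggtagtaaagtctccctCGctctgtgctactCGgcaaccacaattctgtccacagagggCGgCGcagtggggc
ITGAE (chr17:3801139-3801438, minus strand): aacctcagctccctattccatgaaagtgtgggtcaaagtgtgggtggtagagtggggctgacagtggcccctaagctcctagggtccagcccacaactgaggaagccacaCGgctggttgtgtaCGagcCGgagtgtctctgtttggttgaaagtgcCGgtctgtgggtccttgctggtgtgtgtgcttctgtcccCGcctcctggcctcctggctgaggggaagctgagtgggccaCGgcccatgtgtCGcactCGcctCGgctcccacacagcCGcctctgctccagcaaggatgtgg
LAMA5 (chr20:62367263-62367562, minus strand): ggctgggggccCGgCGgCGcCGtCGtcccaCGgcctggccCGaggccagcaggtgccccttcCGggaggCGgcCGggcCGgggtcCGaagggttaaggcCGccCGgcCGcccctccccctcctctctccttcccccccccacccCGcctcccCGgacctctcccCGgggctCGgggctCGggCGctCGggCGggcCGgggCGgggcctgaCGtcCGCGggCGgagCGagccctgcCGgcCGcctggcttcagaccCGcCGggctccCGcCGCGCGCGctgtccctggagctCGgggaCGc

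ITGA10 had 2 CG dinucleotides and 48.7% G and C, and ITGB7 had 4 and 51.7%. LAMA5 had 41 CG dinucleotides and 82.7% G and C. ITGAE had 10 and 61.3%, and ITGA6 had 11 and 53%. ITGA8, also among the highest members, had 27 CG dinucleotides and 69.3% G and C. The printed promoters were picked by their signal, so they set no rule for base composition. The hexamer GGGCGG was searched on both strands, and matches that overlap a counted one were not counted. It occurred 5 times in LAMA5, 3 times in ITGA8 and once in ITGA6, and was not in the other printed promoters. Of 12838 RefSeq promoters that lie inside a deposited window, 57.5% hold it. The hexamer TATAAA, searched on both strands, was in ITGA6 alone of the printed promoters and in 9.75% of the same promoters. A match describes letters and is not a binding site. The table held a promoter inside the deposited window for 23 of the 38 members (60.5%). This is under 80%, so a check of base composition over the members is void.

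Of the 38 members, 18 lay above the median promoter with PAF1 and 20 with PHF5A, where 49.9% and 49.6% of all symbols and 42.3% and 43.8% of protein-coding symbols did. Both libraries placed 16 members above their medians, beside 40.8% of all symbols and 34% of protein-coding ones, and 16 at or below them, beside 41.2% and 47.9%. The members' median log2 signal was -0.03 against all symbols with PAF1 and 0.01 with PHF5A, and 0.13 in each library against protein-coding symbols. At least 2 times the median promoter was reached by ITGA10, ITGB7 and ITGAX with PAF1, 3 of 38, beside 10.2% of all symbols and 7.3% of protein-coding symbols. With PHF5A it was reached by ITGA10 and ITGA8, 2 of 38, beside 8.47% and 6.85%. ITGA10 alone of the members did so in both libraries, as did 5.96% of all symbols and 4.55% of protein-coding ones. At or below the median promoter divided by 2 were 6 members with PAF1 (ITGAE, ITGB2, ITGB8, LAMA1, LAMA5 and LAMC3), beside 19.4% of all and 22.5% of protein-coding symbols. With PHF5A there were 7 (ITGA11, ITGAE, ITGB2, ITGB4, LAMA1, LAMA2 and LAMB2), beside 18.2% and 19.1%. As shares of the list these counts lie near or below those of all symbols.

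**Figure D1:**
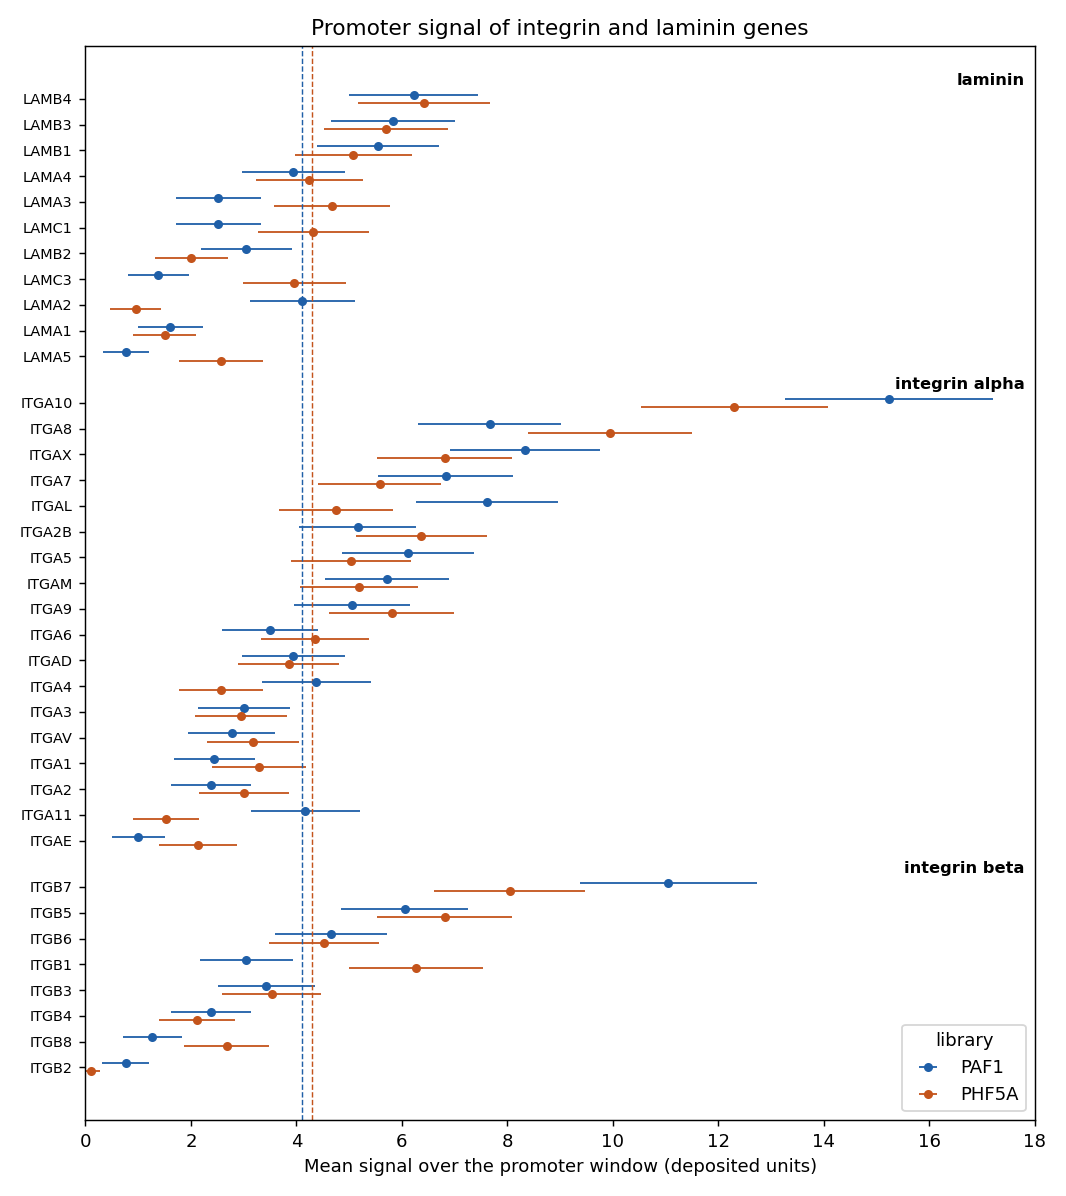
Promoter signal of 37 of the 38 genes in the PAF1 and PHF5A libraries, by family and sorted by the mean log2 signal (x axis, mean signal in deposited units). Points are single libraries, bars are counting standard errors and dashed lines are the library medians. ITGA10 lies furthest right at 15.2 and 12.3, and ITGB2 furthest left at 0.76 and 0.11.

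Of the laminin chains, the ligands, LAMB4 and LAMB3 were above the median promoter in each library. LAMB3, which encodes the beta 3 chain of laminin-332, the anchoring laminin of epithelia, had 5.83 ± 1.18 with PAF1 and 5.7 ± 1.17 with PHF5A. LAMB4, a less studied beta chain, had 6.22 ± 1.22 and 6.42 ± 1.25.

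LAMA3, which encodes the alpha 3 chain of laminin-332, had 2.52 ± 0.802 with PAF1, below the median promoter, and 4.67 ± 1.09 with PHF5A, close above it. The listed windows of LAMA3 and LAMB3 thus lay on opposite sides of the median promoter with PAF1 and on the same side with PHF5A. The LAMA3 window covers the start of the RefSeq gene. The only LAMA3 start among the RefSeq promoters used here lies 183577 bp downstream of the deposited start, outside the window. The LAMA3 values do not describe that start.

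Laminin-511, the widespread trimer of mature basement membranes, is made of the products of LAMA5, LAMB1 and LAMC1. LAMB1 had 5.55 ± 1.16 and 5.08 ± 1.11, and LAMC1 2.52 ± 0.802 and 4.32 ± 1.05. LAMA5 (ENSG00000130702, promoter window on chromosome 20, 62366812 to 62369312) was the lowest laminin gene with PAF1 and by mean log2 signal, at 0.77 ± 0.432 with PAF1 and 2.57 ± 0.788 with PHF5A. With PHF5A LAMA2, LAMA1 and LAMB2 were lower. The PAF1 signal of LAMA5 was 0.187 times the median promoter and close to the floor. Of the other laminin chains, LAMA1, which encodes a chain of early embryonic basement membranes, was low in both libraries at 1.61 ± 0.622 and 1.5 ± 0.604. LAMA4, which encodes a chain of vessel walls, stood at 3.94 ± 0.974 and 4.24 ± 1.01. LAMB2, which encodes a chain of the neuromuscular junction and the kidney filter, had 3.05 ± 0.857 and 2.01 ± 0.698.

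As a family, laminins had 4 of 12 members above the median promoter with PAF1 and 6 of 12 with PHF5A, beside 49.9% and 49.6% of all symbols. At 2 times it were 0 of 12 in each library, beside 10.2% and 8.47%, a count near that share. Their median log2 signal was -0.22 with PAF1 and -0.01 with PHF5A. Against the median promoter the 4 beta chains had the highest median, at 0.42 and 0.29. The 5 alpha chains had -0.61 and -0.64, and the 3 gamma chains -0.61 and 0.01. Against windows within 1 Mb the beta chains had 0.11 and -0.32, the alpha chains -0.59 and -0.39, and the gamma chains -0.77 and 0.28. The beta chains thus kept the highest median with PAF1, and with PHF5A the gamma chains had it. LAMB1 and LAMB4 start 127 kb apart on chromosome 7, so they share most of their neighbours.

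Among the integrin alpha chains, the collagen receptors held both the highest member of the whole set and low ones. ITGA10 (ENSG00000143127, window on chromosome 1, 145909689 to 145912189) encodes the alpha 10 chain, a collagen receptor of cartilage. Its signal was 15.2 ± 1.97 (PAF1) and 12.3 ± 1.78 (PHF5A), which is 3.71- and 2.86-fold the median promoter and percentiles 99.5 and 98.5 of all symbols. The next highest member in each library, ITGB7 with PAF1 and ITGA8 with PHF5A, had 11.1 ± 1.68 and 9.94 ± 1.55.

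The other collagen receptors were lower. ITGA2, the collagen receptor chain of epithelia and platelets, had 2.38 ± 0.758 and 3.01 ± 0.854. ITGA1, a collagen receptor chain of smooth muscle and activated T cells, had 2.44 ± 0.766 and 3.29 ± 0.893, and its window almost coincides with that of PELO (2.52 and 3.19), so the signal cannot be given to either gene. ITGA11, the collagen receptor chain of fibroblasts, had 4.17 ± 1.03 with PAF1 and 1.53 ± 0.628 with PHF5A.

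Of the laminin receptor chains, ITGA6 (ENSG00000091409, window on chromosome 2, 172425354 to 172427854) had 3.5 ± 0.917 with PAF1 and 4.35 ± 1.03 with PHF5A. It pairs with the beta 4 chain in hemidesmosomes and is used as a surface marker of epithelial stem and progenitor cells. Both values lay within 1 counting standard error of the median promoter, at 0.852 and 1.01 times it. A divergent transcript, RP11-227L6.1, shares 819 bp of the ITGA6 window and had 7.23 and 7.93.

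ITGA3, the other epithelial laminin receptor chain, had 3.0 ± 0.874 and 2.95 ± 0.87, below the median in both libraries. ITGA7, the laminin receptor chain of muscle, had 6.83 ± 1.28 and 5.58 ± 1.16, and its window shares 994 bp with that of BLOC1S1 (5.11 and 2.9). Of the 3 laminin receptor chains, that of muscle thus had the highest value in both libraries. With PHF5A it and ITGA6 (4.35 ± 1.03) overlapped within 1 counting standard error of each.

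Among chains that recognise the RGD motif of fibronectin and vitronectin, ITGA8 (ENSG00000077943, window on chromosome 10, 15719625 to 15722125) was highest, at 7.66 ± 1.36 and 9.94 ± 1.55. It acts in kidney development. ITGA5, the fibronectin receptor chain, had 6.11 ± 1.25 and 5.03 ± 1.13, and ITGA2B, the platelet fibrinogen receptor chain, 5.16 ± 1.11 and 6.37 ± 1.24. ITGAV, which pairs with several beta chains in epithelia, was the lowest of them at 2.77 ± 0.817 and 3.18 ± 0.878. ITGA9, a chain related to the alpha 4 chain, had 5.05 ± 1.1 and 5.81 ± 1.19.

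Of the leukocyte alpha chains, ITGAX, the alpha chain of complement receptor 4, had 8.33 ± 1.42 with PAF1 and 6.81 ± 1.28 with PHF5A. ITGAL, the alpha chain of lymphocyte function-associated antigen 1, had 7.61 ± 1.35 and 4.75 ± 1.07. ITGAM, the alpha chain of complement receptor 3, had 5.72 ± 1.17 and 5.19 ± 1.12. All 3 lay above the median promoter in both libraries, and they are encoded near each other on chromosome 16.

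ITGAD, the neighbour of ITGAX 38 kb away, had 3.94 ± 0.974 and 3.85 ± 0.966, just under the medians. ITGA4, which marks circulating lymphocytes, had 4.38 ± 1.03 and 2.57 ± 0.788. ITGAE (ENSG00000083457, window on chromosome 17, 3800743 to 3803243), the chain by which T cells within epithelia bind E-cadherin, was the lowest alpha chain by the mean of both libraries, at 1.0 ± 0.504 and 2.13 ± 0.739. As a family the alpha chains had 11 of 18 members above the median with PAF1 and 10 of 18 with PHF5A. Of all symbols 49.9% and 49.6% lay above it. The alpha chains had median log2 signals of 0.17 and 0.07.

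Among the beta chains, ITGB7 (ENSG00000139626, window on chromosome 12, 53206807 to 53209307), the partner of the alpha 4 and alpha E chains in gut homing, was highest at 11.1 ± 1.68 and 8.04 ± 1.44. ITGB5, a vitronectin receptor chain of epithelia, followed by the mean of both libraries at 6.05 ± 1.21 and 6.81 ± 1.28. ITGB4, the hemidesmosome chain, had 2.38 ± 0.758 and 2.12 ± 0.717, and ITGB8, a chain that activates latent TGF-beta, 1.27 ± 0.554 and 2.68 ± 0.805. ITGB3, of platelets, had 3.42 ± 0.92 and 3.53 ± 0.938 as the mean of its overlapping windows.

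ITGB2 (ENSG00000160255, window on chromosome 21, 44931489 to 44933989), the shared beta chain of the leukocyte integrins, was the lowest of all members. It had 0.76 ± 0.441 with PAF1 and 0.11 ± 0.174 with PHF5A, at the floor in the first library and below it in the second. ITGB1, the partner of most alpha chains in epithelia, had 3.05 ± 0.882 and 6.27 ± 1.27, and ITGB6, an epithelial chain induced in carcinoma, 4.66 ± 1.06 and 4.52 ± 1.05.

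For these 3 beta chains the deposited window does not cover the start of the RefSeq gene. The RefSeq gene starts 3174 bp downstream of the deposited start for ITGB2, 47562 bp downstream for ITGB1 and 71616 bp downstream for ITGB6. Their values describe the listed window and not the RefSeq promoter. For the other 35 members the RefSeq gene start lies inside the window. As a family, 3 of 8 beta chains were above the median promoter with PAF1 and 4 of 8 with PHF5A. Of all symbols 49.9% and 49.6% lay above it. The beta chains had median log2 signals of -0.30 and -0.09.

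The families were thus ordered with alpha chains highest and beta chains lowest by the median in both libraries. The counting standard errors of these medians were 0.09 and 0.09 for alpha chains, 0.16 and 0.15 for beta chains, and 0.13 and 0.12 for laminins. With PHF5A the medians of all 3 families lay closer together than with PAF1. Against windows within 1 Mb the alpha chains kept the highest median (0.26 and -0.09), and beta chains had -0.26 and -0.16 and laminins -0.23 and -0.32.

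The next comparison set the 15 members of epithelial cells and their basement membrane beside the 8 of leukocytes. Epithelial members were lower than leukocyte members in the PAF1 library, with median signals of 3.0 and 5.05. In the PHF5A library the medians were 4.35 and 4.3. On the log2 scale the epithelial median minus the leukocyte median was -0.65 with PAF1 and 0.02 with PHF5A, with counting standard errors of 0.19 and 0.18. Against windows within 1 Mb it was -0.83 with PAF1 and -0.54 with PHF5A, so with PHF5A the epithelial median was lower against the region and close to the leukocyte median against all promoters. The ranges overlapped in both libraries, and with PAF1 they ran from 0.77 to 6.05 for epithelial and from 0.76 to 11.1 for leukocyte members.

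Above the median promoter were 5 of 15 epithelial and 5 of 8 leukocyte members with PAF1, and 9 of 15 and 4 of 8 with PHF5A. Of all symbols 49.9% and 49.6% lay above it. At 2 times the median promoter were 0 of 15 epithelial members in each library, and of leukocyte members 2 of 8 with PAF1 (ITGAX and ITGB7) and 0 of 8 with PHF5A. Among all symbols 10.2% and 8.47% reached it, so counts this small do not set the lists apart. The 4 leukocyte genes on chromosome 16 lie within about 1 Mb. Without them, a choice made after seeing the data, the difference became 0.37 with PAF1 and 0.77 with PHF5A. Left in the leukocyte list were then ITGA4, ITGB7, ITGAE and ITGB2. Their PAF1 log2 signals against the median promoter were 0.08, 1.33, -1.62 and -1.87, beside an epithelial median of -0.40. ITGB2 lies at or below the floor, with a window off the RefSeq start. The changed direction with PAF1 depends on counting ITGB2, so it does not show that the first direction rests on that cluster. Leaving out ITGB1, ITGB2 and ITGB6 instead gave -0.93 with PAF1 and -0.12 with PHF5A. The 15 other members, of platelets, muscle, cartilage and nerve among others, had medians of 4.17 and 4.24.

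**Figure D2:**
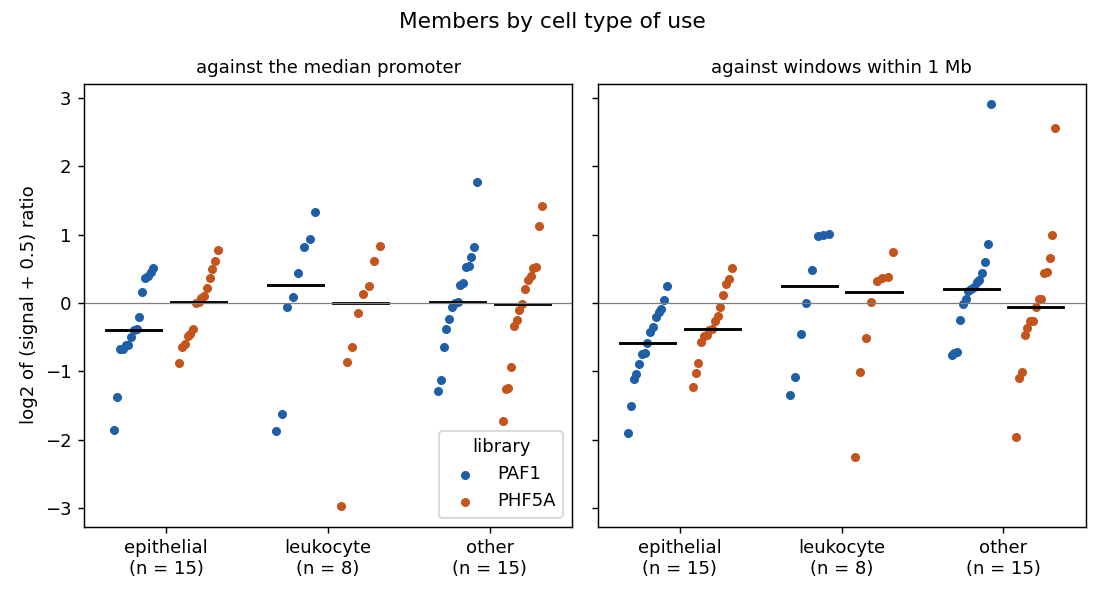
Log2 ratio of (signal + 0.5) for epithelial, leukocyte and other members, against the median promoter (left) and against windows within 1 Mb (right). Points are genes, black bars are medians and colours are the libraries. With PAF1 the epithelial median lies at -0.40 and the leukocyte median at 0.26 on the left.

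Since promoter signal follows the region in these libraries, each member was set against the median of other windows centred within 1 Mb that do not overlap its own. Across the 38 members Spearman's rho between signal and this regional level was 0.20 with PAF1 and 0.24 with PHF5A, where protein-coding symbols had 0.50 and 0.52. These points share a library, and some members share neighbours. The members' median log2 ratio to the region was -0.11 and -0.23, beside -0.15 and -0.11 for protein-coding symbols and 0 for all symbols. Above the regional level were 16 members in each library, beside 49.2% and 49.3% of all symbols and 40.9% and 42.7% of protein-coding symbols.

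At least 1.5 times the regional level was reached by 6 of 38 members with PAF1 and 4 with PHF5A, beside 22% and 20.1% of all symbols and 15.7% and 15.3% of protein-coding symbols. ITGA10, ITGA8, ITGAX and ITGA2B did so in both libraries, as did 14% of all symbols and 9.7% of protein-coding ones. ITGAL and ITGB7 did so with PAF1, at 2.14 and 2.06 times, and had 1.28 and 1.31 times with PHF5A. ITGA8 had 1.92 and 2.09 times its region, and its PHF5A signal was above all 30 neighbouring windows.

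At or below the regional level divided by 1.5 were 13 members with PAF1 and 10 with PHF5A, beside 26.1% and 24.3% of all symbols and 32.1% and 28.4% of protein-coding symbols. In both libraries these included ITGA3, ITGAV, ITGB4 and ITGB8 of the epithelial list, ITGAE and ITGB2 of the leukocyte list, and LAMA1. These 7 make 18.4% of the members, where 16.9% of all symbols and 20.2% of protein-coding symbols did the same. ITGB8 (ENSG00000105855, window on chromosome 7, 20328702 to 20331202) was lower than all 25 of its neighbours in each library, at 0.208 and 0.384 times a regional level of 6.11 and 6.98. Of the epithelial members, 8 of 15 were this low with PAF1 and 4 with PHF5A, the latter (26.7%) near the share of all symbols. Of leukocyte members 2 and 3 of 8 were this low, and of other members 3 and 3 of 15. Above their region lay 2 and 4 epithelial members, beside 49.2% and 49.3% of all symbols.

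**Figure D3:**
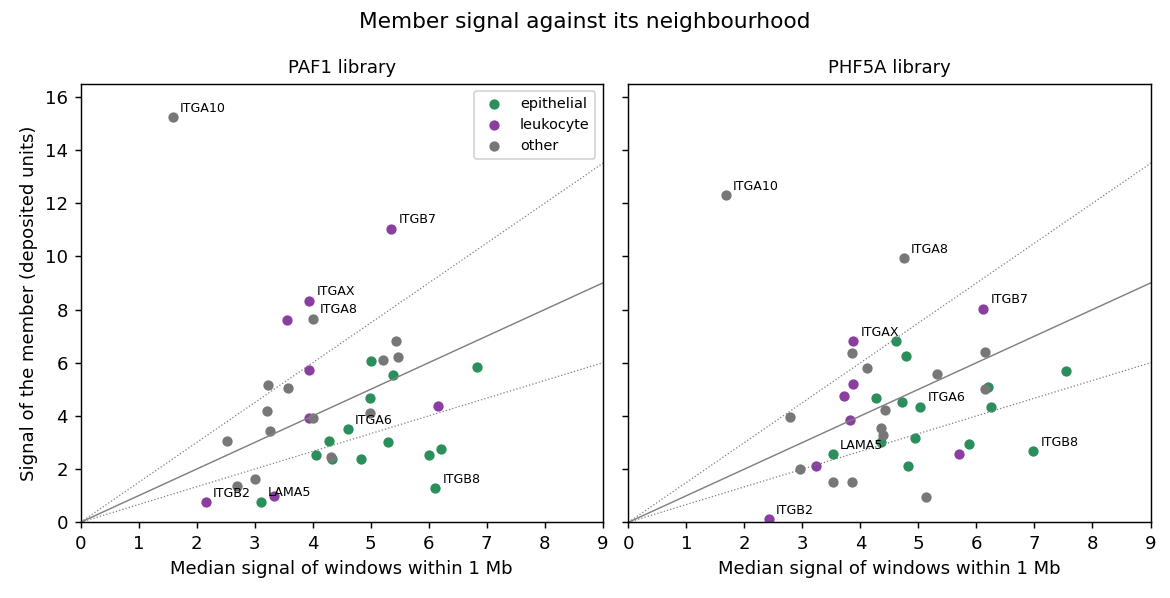
Signal of 37 members (y axis) against the median signal of windows within 1 Mb (x axis), both in deposited units, for the PAF1 library (left) and the PHF5A library (right). The solid line marks equal values and the dotted lines a ratio of 1.5 either way. ITGA10 stands apart at 15.2 against 1.59 and 12.3 against 1.68, and ITGB8 lies below the lower line in both.

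ITGA10 stood furthest above its region, at 9.58 times with PAF1 and 7.34 times with PHF5A, in a neighbourhood with a low median of 1.59 and 1.68. That neighbourhood was split at 200 kb, a distance chosen after seeing the data. The 20 windows within it had medians of 4.83 and 6.69, with none listed at 0. The 38 windows further out had medians of 0.71 and 0.67 and highest values of 8.05 and 4.79, and 12 of them with PAF1 and 8 with PHF5A were listed at 0. The outer windows include NBPF, NOTCH2NL, PPIAL4 and U1 genes, families with near-identical copies. The part of repeated sequence in their low values was not tested.

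Against windows within 200 kb alone, ITGA10 had 3.15 times the median with PAF1 and 1.84 times with PHF5A. In the PAF1 library it was above all 58 neighbours within 1 Mb, with MIR6736 (13.52) within 1 counting standard error of it. With PHF5A 2 neighbours were higher, NUDT17 (13.35) and TXNIP (13.31), both within 1 counting standard error of ITGA10. POLR3GL (12.24), MIR6736 (11.54), LIX1L (10.94) and HFE2 (10.65) were lower and also within 1 counting standard error of it. ITGA10 thus lies in a stretch of high promoters with lower windows beyond it. ITGA6 stood at 0.759 and 0.865 times its region, and 25 and 23 of its 33 neighbours were as high or higher.

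**Figure D4:**
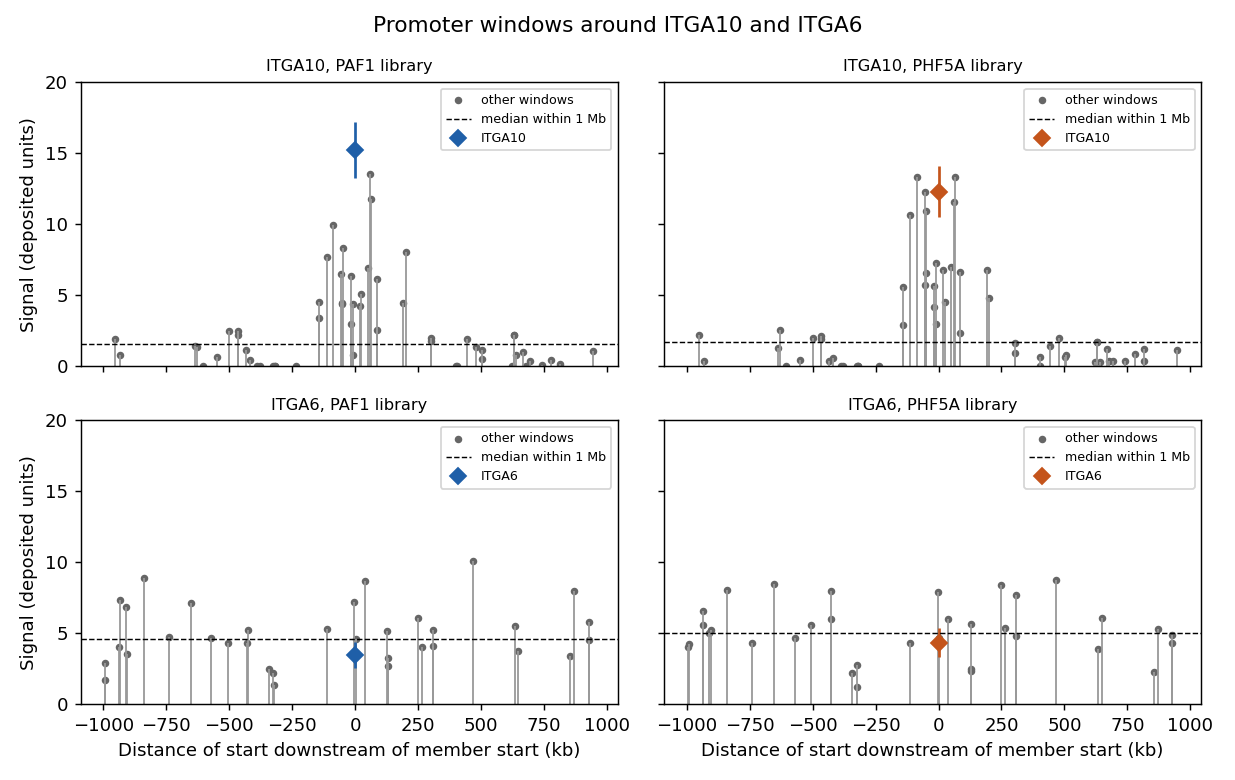
Signal of promoter windows (y axis, deposited units) within 1 Mb of ITGA10 (top) and ITGA6 (bottom) by the distance of their start downstream of the member's start (x axis, kb), in each library. Diamonds with bars are the member and its counting standard error, and dashed lines the median within 1 Mb. Windows near ITGA10 reach 13.5 with PAF1, and those further than 200 kb have medians of 0.71 and 0.67.

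The PAF1 and PHF5A libraries were then compared for each member after each was set on its own median promoter. Spearman's rho between them was 0.78 across the 38 members and 0.82 across protein-coding symbols, which share libraries and regions and are not independent replicates. The PHF5A signal was at least 1.5-fold higher for 7 members, beside 9.53% of all symbols and 12.5% of protein-coding symbols. The PAF1 signal was at least 1.5-fold higher for 5, beside 9.91% and 9.17%.

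LAMA2, which encodes the alpha chain of muscle laminin (ENSG00000196569, window on chromosome 6, 128881141 to 128883641), had 4.11 ± 0.994 with PAF1 and 0.95 ± 0.479 with PHF5A. This is a log2 difference, PHF5A minus PAF1, of -1.73 ± 0.57. Its PHF5A value was below all 24 neighbouring windows. ITGA11 (ENSG00000137809, window on chromosome 15, 68431662 to 68434162) had -1.26 ± 0.55.

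In the other direction, LAMA5 had 1.22 ± 0.62 and LAMC3 (ENSG00000050555, window on chromosome 9, 131007082 to 131009582) had 1.19 ± 0.54. LAMC3 encodes a gamma chain of nerve and retina, and its signal was 1.38 ± 0.578 with PAF1 and 3.96 ± 0.98 with PHF5A. The differences of LAMA2, ITGA11 and LAMC3 exceeded 2 counting standard errors, which 5.05% of all symbols and 3.16% of protein-coding ones did with PAF1 higher, and 2.23% and 3% with PHF5A higher. That error is itself scaled by the split of counts between the same libraries. The regional levels of these 4 genes differed little between the libraries, by -0.02 for LAMA2, 0.17 for ITGA11, 0.10 for LAMA5 and -0.02 for LAMC3.

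By lineage, the 7 members higher with PHF5A were 5 of the 15 epithelial ones (ITGB1, ITGB8, LAMA3, LAMA5 and LAMC1), ITGAE and LAMC3. The 5 higher with PAF1 were ITGA4, ITGAL and ITGB2 of the 8 leukocyte genes, together with ITGA11 and LAMA2. Of all symbols 9.53% were this much higher with PHF5A and 9.91% with PAF1. No epithelial or leukocyte member among them exceeded 2 counting standard errors. The ITGB1 window misses the RefSeq start, and the PAF1 value of LAMA5 (0.77) was close to its floor of 0.721. ITGB2 lay at or below the floor in both libraries and its window misses the RefSeq start, so its fold carries no weight, and 4 genes were higher with PAF1 among symbols with a mean signal of at least 1. The median log2 difference, PHF5A minus PAF1, was 0.22 for epithelial and -0.41 for leukocyte members, and -0.05 for all 38. The corresponding medians of the regional levels were 0.06 and -0.08. With 1 library per antibody these differences cannot be told apart from those between libraries of any kind.

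**Figure D5:**
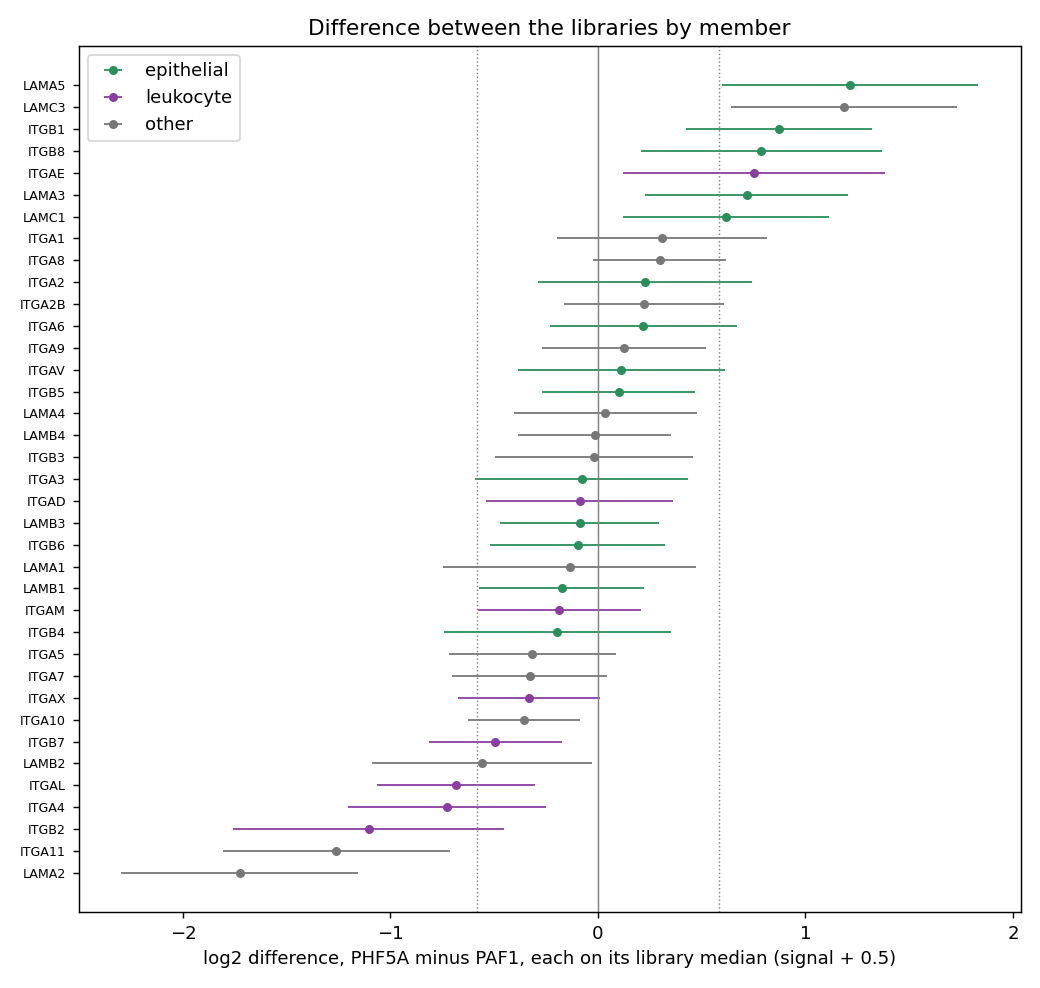
Log2 difference of the PHF5A and PAF1 libraries for 37 members (x axis, PHF5A minus PAF1, each on its own library median), sorted, with colours for epithelial, leukocyte and other members. Bars are counting standard errors and dotted lines mark a 1.5-fold difference. LAMA5 is at the top with 1.22 and LAMA2 at the bottom with -1.73.

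Other genes of the adhesion pathway were read in the same way. Integrin adaptors link the beta tail to actin and signalling. Of 25 measured adaptor genes, 11 lay above the median promoter with PAF1 and 12 with PHF5A, near the share of all symbols. That share was 49.9% and 49.6%, and the adaptors had median log2 signals of -0.05 and -0.19. By the mean log2 signal TNS4, which encodes a tensin of epithelial and carcinoma cells, was highest at 8.35 ± 1.46 and 12.01 ± 1.75, and FLNA, which encodes the actin crosslinker filamin A, lowest at 1.61 ± 0.622 and 1.11 ± 0.52. TNS2 was not analysed here.

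Of 20 integrin ligands other than laminins, 6 and 7 were above the median promoter, beside 49.9% and 49.6% of all symbols. The ligands had medians of -0.53 and -0.36. VTN, which encodes vitronectin, had 8.5 ± 1.43 and 8.38 ± 1.42, and ICAM1, a ligand of the beta 2 integrins, 1.0 ± 0.49 and 0.44 ± 0.329. Of 18 other basement membrane and hemidesmosome genes, 4 and 6 were above the median promoter, beside the same shares of all symbols. This list had medians of -0.62 and -0.62. COL4A2, a type IV collagen chain, had 11.0 ± 1.63 and 10.2 ± 1.57, and AGRN, which encodes agrin, 0.11 ± 0.163 and 0.5 ± 0.349, both below the floor. Against the median promoter, integrin and laminin genes had higher medians than the last 2 lists in each library, a description without a test. Against windows within 1 Mb with PHF5A the ligands had the higher median, at -0.17 beside -0.23.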

How the data were processed

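The authors deposited a mean signal for each promoter window and antibody. The sources used here state neither its unit nor its normalization. Tools named without order or settings in the submitters' processing notes are Bowtie2 2.2.3, deepTools, bedtools, Picard and Trim Galore, with the hg38 build. Crosslinking, per the labels' protocols, used EGS at 1.5 mM and formaldehyde at 0.4%.

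PAF1 values equal means of whole numbers over 150 bp bins in 100% of windows (tolerance 0.0051), and PHF5A values do after division by 1.00608. Counting errors used a dispersion of 4.33, from the split of bin sums between libraries over 50205 non-overlapping windows. It includes true differences between antibodies, and a fragment can fall in several bins. Errors and floors (3 counts times the dispersion) are thus not pure counting errors, and they do not measure the spread of replicate libraries.

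Windows of 1 symbol were averaged. Log2 values used signal + 0.5, calls by fold used the signal itself, except between libraries. The regional level is the median of windows of other symbols centred within 1 Mb that do not overlap. Protein-coding symbols (17824) were taken from RefSeq. Members given in full were ITGA10, ITGA6 and the extremes by mean log2 signal, regional ratio and library difference, and of other lists the highest and lowest. The members and lists were chosen with earlier results of these data known. Base composition of the full windows and mappability were not analysed here. The values of 1 member enter the counts and medians and are not reported here. The functions were tested on simulated data. Alternatives changed the pseudocount, centring, folds, neighbourhood and members. Computations ran in SciPy 1.17.1 and numpy 2.4.6 with pandas 2.3.3 under Python 3.11.15, and plots in matplotlib 3.10.9.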

Additional observations from a re-analysis of the deposited data

How the results depend on the processing

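No paired analysis was possible because each antibody has 1 library, and no replicate could be left out. Of 156 recomputed values for 30 results, 132 moved by less than their counting interval or, for counts, by at most 1.5 times, and the other 24 moved further. The sign changed in 8, of which 7 started from a value within its counting interval of 0. The remaining one was the epithelial minus leukocyte median with PAF1 (-0.65), which was 0.37 without the 4 leukocyte genes on chromosome 16, a choice made after seeing the data. The same difference was -0.93 without ITGB1, ITGB2 and ITGB6. With PHF5A (0.02) the difference was -0.54 against the region, -0.38 for integrins only, -0.12 without ITGB1, ITGB2 and ITGB6, and 0.77 without those 4 genes. The members' median with PAF1 was 0.13 when centred on protein-coding symbols, by construction since their median is lower. The regional median of members with PHF5A (-0.23) was -0.10 within 200 kb. Against the region, with PHF5A, laminins had -0.32, ligands -0.17 and basement membrane genes -0.35. At 1.5 times the median promoter there were 7 members with PAF1 and 6 with PHF5A, and 5 with PAF1 at 2 times the protein-coding median. A 2-fold limit left 7 members low against their region with PAF1, 2 high with PHF5A, and 2 and 3 apart between libraries with PHF5A and PAF1 higher. ITGA10 stood at 3.15 to 9.58 times its region with PAF1 and 1.84 to 8.17 with PHF5A, lowest within 200 kb, and ITGA6 at 0.709 to 0.806 and 0.850 to 0.966 times. Leaving out ITGB1, ITGB2 and ITGB6 moved no median beyond its counting interval. The cause of the other changes was not tested. A median promoter window holds a bin sum of 73 with PAF1 and 75 with PHF5A, and a gene at the median promoter has an error like that of LAMA2 with PAF1 (4.11 ± 0.994).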

Other observations

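Base composition of promoters can be described for symbols whose RefSeq promoter lies inside the deposited window. These are 11524 protein-coding symbols, or 64.7% of them, so the values describe these promoters alone and are no check of any list. Spearman's rho between the share of G and C in the 300 bases and the signal was -0.33 with PAF1 and -0.32 with PHF5A, and -0.26 and -0.24 for the log2 ratio to the region. Promoters with 40% to 50% G and C had median signals of 5.11 and 5.2, and those with 70% or more 2.7 and 3.01. Among the 23 members with such a sequence rho was -0.56 and -0.54. The 8 members at 70% or more (ITGA11, ITGA2, ITGA4, ITGAV, ITGB8, LAMA5, LAMB1 and LAMC1) had medians of 2.65 and 2.85. These promoters share libraries, and the part of base composition in the order of the members was not tested.

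Several members share a neighbourhood, which bears on how their values are read. ITGAM, ITGAX and ITGAD start within 95 kb and 38 kb of each other, yet had 5.72, 8.33 and 3.94 with PAF1 under nearly the same regional level of 3.94. ITGA1 and ITGA2, 201 kb apart on chromosome 5, had nearly equal signals of 2.44 and 2.38 with PAF1 and 3.29 and 3.01 with PHF5A. LAMB1 and LAMB4, 127 kb apart, had 5.55 and 6.22 with PAF1 and 5.08 and 6.42 with PHF5A.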
